A study of Mus musculus with 9 samples.

Results

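The genes described here are 39 genes listed for the amino acid response around the transcription factor ATF4. They are stress response factors, serine and one-carbon enzymes, amino acid transporters and cytoplasmic tRNA synthetases, and their control by ATF4 was not measured. All 39 were found among the 35288 Ensembl genes of the count table, and 38 of them passed the filter on low counts. They were measured by RNA-seq in T15, a cell line from a murine peripheral T-cell lymphoma that lacks Smarcb1, a core subunit of the SWI/SNF chromatin remodelling complexes. The 9 libraries form 3 groups of 3, which the study describes as biological replicates: control T15 cells, T15 cells treated with SAHA (vorinostat, an inhibitor of histone deacetylases, 1 µM, 72 h), and T15 cells that carry a lentiviral Smarcb1 cDNA and were given doxycycline to switch it on (Smarcb1-RE, 0.5 µg/µl, 72 h). Every group thus lacks the endogenous Smarcb1 gene product, and the Smarcb1-RE cells went through lentiviral transduction and G418 selection. The study calls the control cells of the RNA-seq untreated, but for its re-expression system it also describes an empty vector and control cells given doxycycline. The labels speak of vehicle and of a plasmid without Smarcb1 as controls and leave unsaid what each control library was given. Vector, G418 and doxycycline therefore cannot be told apart from Smarcb1 in their effects. The study reports strong apoptosis of T15 cells at this SAHA dose, with most cells dead. After re-expression it reports slower growth, with viability and cell cycle unaffected. The part of cell death and of growth in the values below was not tested. More than 1 independent clone was established after selection, and whether the 3 Smarcb1-RE libraries come from 1 clone or several is not given in the sources used here.

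When an amino acid runs short, uncharged tRNA activates the kinase GCN2, which phosphorylates the translation factor eIF2. Bulk protein synthesis falls, while the mRNA of Atf4 is translated better. The ATF4 protein then pairs with C/EBP proteins on a DNA element of the type TGATGNAA and switches on genes for amino acid synthesis, uptake and charging onto tRNA, together with feedback inhibitors and the proapoptotic factor CHOP. ER stress, haem shortage and double-stranded RNA feed into the same pathway through other eIF2 kinases, so it is called the integrated stress response. Proliferating T cells rely on this programme for serine, one-carbon units and the uptake of large neutral amino acids.

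Library totals ranged from 20900477 to 24941494 estimated counts, and 3 counts corresponded to between 0.123 and 0.133 in counts-per-million (CPM), which covers counting error only. Levels are given as CPM normalized by the TMM method of edgeR, which corrects for library composition. Smarcb1 had 2, 5 and 8 counts in control, 7, 13 and 3 counts in SAHA, and 151, 147 and 142 counts with re-expression. Of 9 T-cell markers, 8 reached 1 CPM and Cd2 lay at or under 3 counts in every library. The 9 together summed to between 2748 and 2951 CPM in control, 2458 and 2508 CPM in SAHA and 2621 and 2656 CPM in Smarcb1-RE. Among 17 markers of B cells, myeloid cells, fibroblasts and epithelial cells, 4 reached 1 CPM in any library, and the fibroblast sum rose from between 6.29 and 8.84 CPM in control to between 66.4 and 68.6 CPM in Smarcb1-RE, of which Pdgfra made 68, 65.8 and 67.6 CPM, while Col1a2 and Dcn lay at 0.17 CPM or less in every library. Col1a1 was sparse, with 1, 5 and 0 counts in control, 17, 20 and 25 with SAHA and 11, 11 and 11 with re-expression, and was called higher in both treated groups (3.34, adjusted p = 0.000176, and 2.43, adjusted p = 0.00296). The part of these markers in the results was not tested. Control replicate 1 stood apart from the other control libraries, with a chi-square per gene of 13.4 and 15.0 against them, where all other pairs within a group gave between 2.08 and 4.69.

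Most of the listed members were lower in SAHA. The members and the other gene lists were chosen with earlier results of these data known, so the counts describe the lists. Of the 38 genes tested, 34 fell in SAHA against control and 1, Nupr1, rose, where 34.3% of all 13697 tested genes fell and 32.6% rose at an adjusted p-value under 0.05. Their median log2 fold change was -0.67, against 0.003 for all tested genes. Smarcb1 re-expression went mostly the other way: 28 of the 38 genes rose and 6 fell, where 39.2% of all genes rose and 38.6% fell, and the median log2 fold change was 0.35 against 0.014 for all genes. A change of at least a factor of 2 was called downward for 7 genes in SAHA (2.35% of all genes) and upward for 11 genes in Smarcb1-RE (16.9% of all genes). The libraries of the compared groups did not overlap for 33 genes lower (34.9% of all genes) and 1 higher (33.8%) in SAHA, and for 29 higher (40.4%) and 7 lower (39.1%) in Smarcb1-RE. In these bulk libraries a smaller share of cells that express a gene and less of its RNA per cell cannot be told apart. Both comparisons use the same control libraries, so the values are given side by side and the treatments were compared directly. That direct comparison contrasts the SAHA and Smarcb1-RE libraries, but its filter, scaling and estimated spread come from all 9 libraries, controls included. There 35 of the 38 genes were higher in Smarcb1-RE than in SAHA (37.7% of all genes). Of these, 19 were at least a factor of 2 higher (11.5% of all genes). The other 2 called genes, Shmt1 and Wars, were lower (36.8% of all genes). The SAHA and Smarcb1-RE libraries did not overlap for any of these 37 genes, as for 40.7% of all genes upward and 39.2% downward. The exception was Phgdh (log2 fold change -0.01, adjusted p = 0.851).

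Without control replicate 1, 33 members fell in SAHA and 28 rose and 8 fell in Smarcb1-RE. When only library totals were used in place of TMM factors, the median of all genes moved from 0.01 to 0.17 in Smarcb1-RE against control and the upward share of its called genes from 50.4% to 61%, while 30 members rose and 6 fell, with a median of 0.51.

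**Figure D1:**
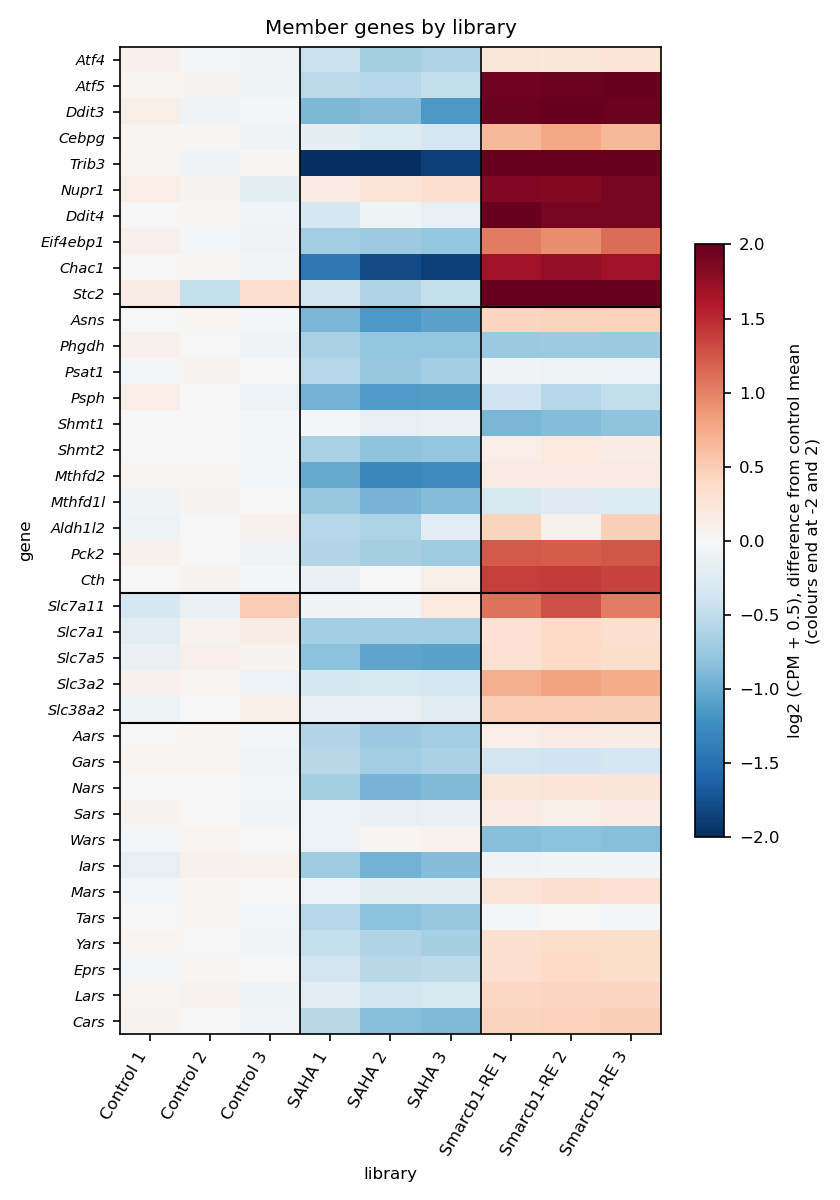
Level of the 38 tested member genes (rows, in role groups split by black lines: factors and effectors, enzymes, transporters, synthetases) in each of the 9 libraries (columns), as the difference in log2 (CPM + 0.5) from the mean of the control libraries, with colours ending at -2 and 2 while the values run from -2.12 to 2.62. The SAHA columns are mostly blue and the Smarcb1-RE columns mostly red, with Phgdh, Psph, Shmt1, Mthfd1l, Gars and Wars blue in Smarcb1-RE.

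Atf4 (ENSMUSG00000042406), the regulator at the centre of the pathway, spans chromosome 15 from 80255184 to 80257541 on the plus strand of GRCm38 in GENCODE M21. Its mRNA level was 372, 337 and 331 CPM in control, 255, 218 and 226 CPM in SAHA and 411, 407 and 418 CPM in Smarcb1-RE. The 3 groups did not overlap, with SAHA lowest and Smarcb1-RE highest. The log2 fold change was -0.57 (standard error 0.06, adjusted p = 2.94e-06) in SAHA, 0.25 (standard error 0.06, adjusted p = 0.00191) in Smarcb1-RE and 0.82 (standard error 0.06, adjusted p = 6.07e-08) in Smarcb1-RE against SAHA. Per kilobase of merged exon sequence, Atf4 in control stood at 147 CPM, next to the glycyl-tRNA synthetase gene Gars at 146 CPM and below the serine synthesis enzyme Phgdh at 168 CPM. Since ATF4 is controlled largely in translation, its mRNA is only part of its regulation, and protein was not measured in these libraries.

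The other transcription factors had larger log2 fold changes than Atf4 in Smarcb1-RE. Atf5, a relative of Atf4 that is also induced by eIF2 phosphorylation, had 15.4, 15.6 and 14.1 CPM in control, 10.2, 9.94 and 10.5 CPM in SAHA and 59.4, 59.6 and 62.5 CPM in Smarcb1-RE. Ddit3, which encodes CHOP, stood at 9.78, 8.54 and 8.8 CPM in control, 4.63, 4.73 and 3.79 CPM in SAHA and 36.6, 39 and 36.7 CPM in Smarcb1-RE. For both genes the groups were separate, with the Smarcb1-RE libraries above and the SAHA libraries below the controls. Atf5 changed by -0.55 (standard error 0.06, adjusted p = 5.91e-06) in SAHA and 2.01 (standard error 0.05, adjusted p = 1.01e-11) in Smarcb1-RE, and Ddit3 by -1.04 (standard error 0.10, adjusted p = 1.08e-06) and 2.05 (standard error 0.08, adjusted p = 1.45e-10). Cebpg, the C/EBP protein with which ATF4 pairs, showed the same order at 63.1, 62.3 and 58.1 CPM in control, 53.4, 50.5 and 47.7 CPM in SAHA and 96.8, 105 and 97.1 CPM in Smarcb1-RE, with log2 fold changes of -0.27 and 0.71. Ddit3 and the synthetase gene Mars share 68 bases of exon on opposite strands, Atf5 shares 82 such bases with Nup62, and the strand setting of the counting is not given in the sources used here. A short second Ddit3 entry held 15 counts over all libraries, against 3537 for the gene described.

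The feedback regulators and effectors included the largest log2 fold changes of the set. Trib3, a pseudokinase that binds ATF4 and restrains it, had 15.5, 14.5 and 15.7 CPM in control, 3.12, 3.45 and 3.79 CPM in SAHA and 71.5, 77.8 and 73.6 CPM in Smarcb1-RE. Chac1, which degrades glutathione, had 9.27, 9.51 and 8.88 CPM in control, 3.12, 2.3 and 2.15 CPM in SAHA and 30.7, 32.4 and 30.5 CPM in Smarcb1-RE. In both genes the groups were far apart, and the direct comparison of Smarcb1-RE with SAHA gave 4.43 (standard error 0.07, adjusted p = 1.83e-13) for Trib3 and 3.62 (standard error 0.10, adjusted p = 1.52e-11) for Chac1, or 21.5-fold and 12.3-fold. Against control, Trib3 fell by 2.14 on the log2 scale in SAHA and rose by 2.29 in Smarcb1-RE, and Chac1 fell by 1.87 and rose by 1.76.

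Ddit4 (REDD1), an inhibitor of mTORC1, had 19.6, 19.95 and 18.8 CPM in control, 15.2, 18.3 and 17.3 CPM in SAHA and 81, 73.7 and 74.1 CPM in Smarcb1-RE. The rise in Smarcb1-RE was 1.97 (standard error 0.06, adjusted p = 4.88e-11), while the small decrease in SAHA (-0.20, adjusted p = 0.0271) was not called without SAHA replicate 1 (-0.13, adjusted p = 0.11) or control replicate 2 (-0.18, adjusted p = 0.0737), with at least 10 counts in every library (-0.17, adjusted p = 0.052) or with separate fits (-0.19, adjusted p = 0.052). Eif4ebp1, which encodes a repressor of cap-dependent translation, had 28.4, 26 and 25.3 CPM in control, 16.2, 15.7 and 15.3 CPM in SAHA and 55.2, 50.8 and 58.3 CPM in Smarcb1-RE, with log2 fold changes of -0.75 in SAHA and 1.05 in Smarcb1-RE. Nupr1, a small stress-induced chromatin protein, was the only member that rose in SAHA. Its values were 22.3, 21.1 and 17.6 CPM in control, 22.7, 24.5 and 25.7 CPM in SAHA and 74.1, 73.6 and 76.6 CPM in Smarcb1-RE, and the increase in SAHA (0.26, adjusted p = 0.0111) was not called without SAHA replicate 3 (0.22, adjusted p = 0.0534), whereas that in Smarcb1-RE was 1.88 (standard error 0.07, adjusted p = 1.92e-10).

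Stc2, a secreted glycoprotein, was close to the limit of detection outside Smarcb1-RE. It had 8, 1 and 11 counts in control, 2, 0 and 1 with SAHA and 91, 90 and 96 with re-expression. The summed counts of Smarcb1-RE were 14.3-fold those of control after normalization (95% exact interval from 9.08 to 23.8, counting error only). Those of SAHA were 0.156-fold (interval from 0.0296 to 0.524), and this decrease was not called without control replicate 3 (log2 fold change -2.0, adjusted p = 0.0724) or without SAHA replicate 2 (-2.02, adjusted p = 0.0565). Vldlr, a lipoprotein receptor that ATF4 induces in other cells, had at most 1 count in any library and was the single member that did not pass the filter.

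**Figure D2:**
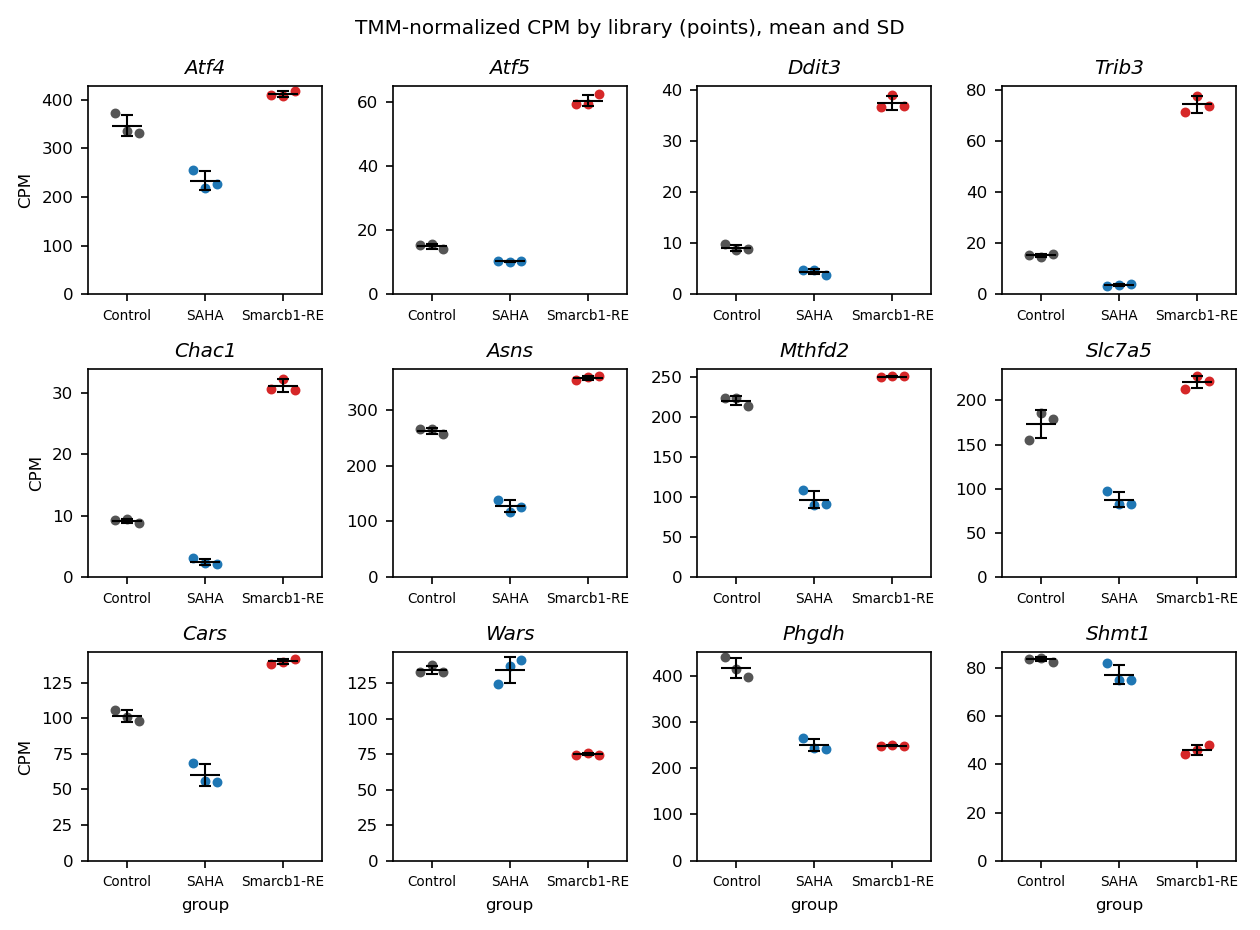
TMM-normalized CPM (vertical axes, linear from 0) of 12 members in the 3 groups (horizontal axes), with a point per library and the mean and SD of each group in black. Atf4, Atf5, Ddit3, Trib3, Chac1, Asns, Mthfd2, Slc7a5 and Cars are lowest in SAHA and highest in Smarcb1-RE, whereas Wars and Shmt1 are lowest in Smarcb1-RE and Phgdh lies at about 250 CPM in both treated groups.

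The window from 250 bases before to 50 bases after the RefSeq start site (GRCm38.p6) was searched for the ATF4-type element, with the letters TGATGNAA on the sense strand or TTNCATCA, which is the same element on the other strand. A window was at hand for 31 of the 39 members, and 12 of the 31 (38.7%) held the element, against 4.51% of the 27025 genes with a window. These members were listed as genes of this response and with earlier results of these data known, so the share describes the list. The element was present for 4 of 10 factors and effectors (Trib3, Nupr1, Chac1 and Vldlr), 2 of 9 enzymes (Asns and Pck2), 1 of 4 transporters (Slc7a11) and 5 of 8 synthetases (Gars, Iars, Tars and Yars among them). Among the lists outside the members, 6 of 14 further ATF4 target genes held it, 1 of 14 genes of the eIF2 list and 1 of 11 other amino acid transporters. It was absent from 9 other cytoplasmic synthetase and scaffold genes and 14 mitochondrial synthetases. It was also absent from 15 other serine, folate and methionine cycle genes and 10 genes of the ER unfolded protein response. A match describes these letters only, and ATF4 binding was not measured.

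Stretches around elements that lie before the start site are printed for 7 members that passed the filter, on the sense strand from 5′ to 3′, with the element in capitals, so that the shared letters can be compared with the changes of these genes.
Asns: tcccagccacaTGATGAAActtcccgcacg
Chac1: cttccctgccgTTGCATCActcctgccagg
Nupr1: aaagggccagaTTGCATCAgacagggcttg
Pck2: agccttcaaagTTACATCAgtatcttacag
Slc7a11: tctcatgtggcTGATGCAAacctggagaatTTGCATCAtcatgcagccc
Gars: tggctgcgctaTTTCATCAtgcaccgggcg
Tars: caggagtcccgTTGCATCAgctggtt
They lie at chr6:7693214-7693243 (minus strand), chr2:119351038-119351067 (plus), chr7:126625562-126625591 (minus), chr14:55540152-55540181 (plus), chr3:50443642-50443690 (minus), chr6:55037960-55037989 (plus) and chr15:11399659-11399684 (minus), and in that order the elements begin 23, 193, 110, 103, 66, 30 and 15 bases before the start, with a second one 47 bases before it in Slc7a11, in the other orientation. The letters TTGCATCA recur in Chac1, Nupr1, Slc7a11 and Tars. These 4 genes differed in how they changed: in Smarcb1-RE against control the log2 fold change was 1.76 for Chac1, 1.88 for Nupr1, 1.60 for Slc7a11 and -0.02 for Tars, which was not called (adjusted p = 0.752).

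Among the enzymes, 10 of 11 fell in SAHA, where 34.3% of all genes fell. In Smarcb1-RE 5 of the 11 rose and 4 fell, shares near the 39.2% and 38.6% of all genes. Asns, which makes asparagine and is the classical target of the amino acid response, had 265, 266 and 256 CPM in control, 139, 118 and 125 CPM in SAHA and 353, 358 and 359.6 CPM in Smarcb1-RE. Its groups did not overlap, and the log2 fold changes were -1.04 (standard error 0.05, adjusted p = 8.09e-09) in SAHA and 0.44 (standard error 0.05, adjusted p = 4.66e-06) in Smarcb1-RE. Pck2, the mitochondrial phosphoenolpyruvate carboxykinase, had 101, 94.6 and 90.3 CPM in control, 63.2, 59.7 and 57.7 CPM in SAHA and 223, 221 and 225 CPM in Smarcb1-RE, with -0.66 and 1.23 on the log2 scale. Cth, which makes cysteine from cystathionine, had 15.2, 15.9 and 14.9 CPM in control, 13.9, 15.2 and 16.6 CPM in SAHA and 40.9, 41.1 and 40.1 CPM in Smarcb1-RE. Cth thus rose in Smarcb1-RE (1.41, standard error 0.06, adjusted p = 5.91e-10), while the control and SAHA libraries overlapped (-0.01, adjusted p = 0.949).

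The 3 enzymes of serine synthesis did not rise in Smarcb1-RE. Phgdh, the first step, fell from 418 ± 22.2 CPM (mean ± SD, n = 3) in the control libraries to 251 ± 13.1 CPM in SAHA and 249 ± 1.46 CPM in Smarcb1-RE, with log2 fold changes of -0.73 and -0.74. Psph, the last step, had 67.7, 61.2 and 56.9 CPM in control, 31.8, 27.9 and 28.3 CPM in SAHA and 46.5, 41.3 and 43.9 CPM in Smarcb1-RE, and changed by -1.08 (standard error 0.07, adjusted p = 7.07e-08) and -0.50 (standard error 0.07, adjusted p = 2.98e-05). Psat1, which acts between them, fell by 0.67 on the log2 scale in SAHA. In Smarcb1-RE it stood at 378, 371 and 367 CPM against 386, 414 and 396 CPM in control (-0.10, adjusted p = 0.0783), a difference that was called as a decrease by DESeq2 (-0.11, adjusted p = 0.0468), without the filter on low counts (-0.13, adjusted p = 0.0393), with separate fits (-0.11, adjusted p = 0.0448), without control replicate 1 (-0.13, adjusted p = 0.0229) and without SAHA replicate 1 (-0.12, adjusted p = 0.021) or 2 (-0.12, adjusted p = 0.0382).

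Folate-dependent one-carbon metabolism has a mitochondrial and a cytosolic branch, and both are represented among the members. Shmt2, the mitochondrial enzyme that takes the one-carbon unit from serine, had 386, 388 and 378 CPM in control, 245, 219 and 223 CPM in SAHA and 422, 438 and 425 CPM in Smarcb1-RE. Mthfd2, the next mitochondrial step, had 224, 224 and 214 CPM in control, 109, 90.0 and 91.6 CPM in SAHA and 249, 251 and 251 CPM in Smarcb1-RE. Both genes were lowest in SAHA without overlap, at -0.74 and -1.18 on the log2 scale, and slightly above control in Smarcb1-RE, at 0.16 (standard error 0.04, adjusted p = 0.00641) and 0.18 (standard error 0.06, adjusted p = 0.0136), of which that of Mthfd2 was not called without control replicate 3 (0.15, adjusted p = 0.0662). Mthfd1l, which releases formate from mitochondria, fell in both, by 0.85 in SAHA and 0.29 in Smarcb1-RE. The cytosolic Shmt1 fell from 83.7 ± 0.842 CPM (mean ± SD, n = 3) in the control libraries to 46 ± 1.88 CPM in Smarcb1-RE (-0.86, standard error 0.05, adjusted p = 4.54e-09), while its small decrease in SAHA (-0.11, adjusted p = 0.0464) was not called by DESeq2 (-0.11, adjusted p = 0.093), with median-ratio factors (-0.11, adjusted p = 0.0563), at least 10 counts in every library (-0.08, adjusted p = 0.144), separate fits (-0.11, adjusted p = 0.0897) or the replicate block (-0.11, adjusted p = 0.0666), or without control replicate 1, 2 or 3, SAHA replicate 2 or 3 or Smarcb1-RE replicate 2 (adjusted p between 0.0505 and 0.157). Shmt1 shares 184 bases of exon on the opposite strand with Smcr8, which had a mean of 1726 counts against 1612 for Shmt1. Aldh1l2, a mitochondrial folate dehydrogenase, had only 37, 41 and 45 counts in control, 23, 21 and 33 with SAHA and 59, 42 and 60 with re-expression, and shares 1056 bases of exon on the opposite strand with D10Wsu102e, which had a mean of 5444 counts. Its decrease in SAHA (-0.62, standard error 0.24, adjusted p = 0.0336) is therefore uncertain, and was lost with DESeq2 (adjusted p = 0.0731), without control replicate 2 (adjusted p = 0.0647) or 3 (0.0879) or without SAHA replicate 1 (0.0927) or 2 (0.111). Its value in Smarcb1-RE (0.43, adjusted p = 0.089) was called without Smarcb1-RE replicate 2 (0.57, adjusted p = 0.0482), with library totals alone (0.59, adjusted p = 0.026) and with at least 10 counts in every library (0.49, adjusted p = 0.0299).

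Of 17 tested genes listed beside these enzymes for the serine, folate and methionine cycles, 4 rose (32.6% of all genes) and 10 fell (34.3%) in SAHA. In Smarcb1-RE, 3 of them rose (39.2% of all genes) and 12 fell (38.6%). Gldc, which cleaves glycine in mitochondria, changed most: its values were 8.63, 8.88 and 9.62 CPM in control, 12.3, 12.8 and 13.1 CPM in SAHA and 0.256, 0.487 and 0.431 CPM in Smarcb1-RE. Its log2 fold change was -4.52 (standard error 0.16, adjusted p = 9.6e-11) in Smarcb1-RE and 0.49 in SAHA. Mthfd1, the cytosolic counterpart of Mthfd2 and Mthfd1l, fell from 339 ± 6.01 CPM (mean ± SD, n = 3) to 101 ± 1.83 CPM in Smarcb1-RE (-1.75). In SAHA, the methionine synthase Mtr (-1.08), the thymidylate synthase Tyms (-0.99) and the glycine cleavage protein Gcsh (-0.98) fell most.

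**Figure D3:**
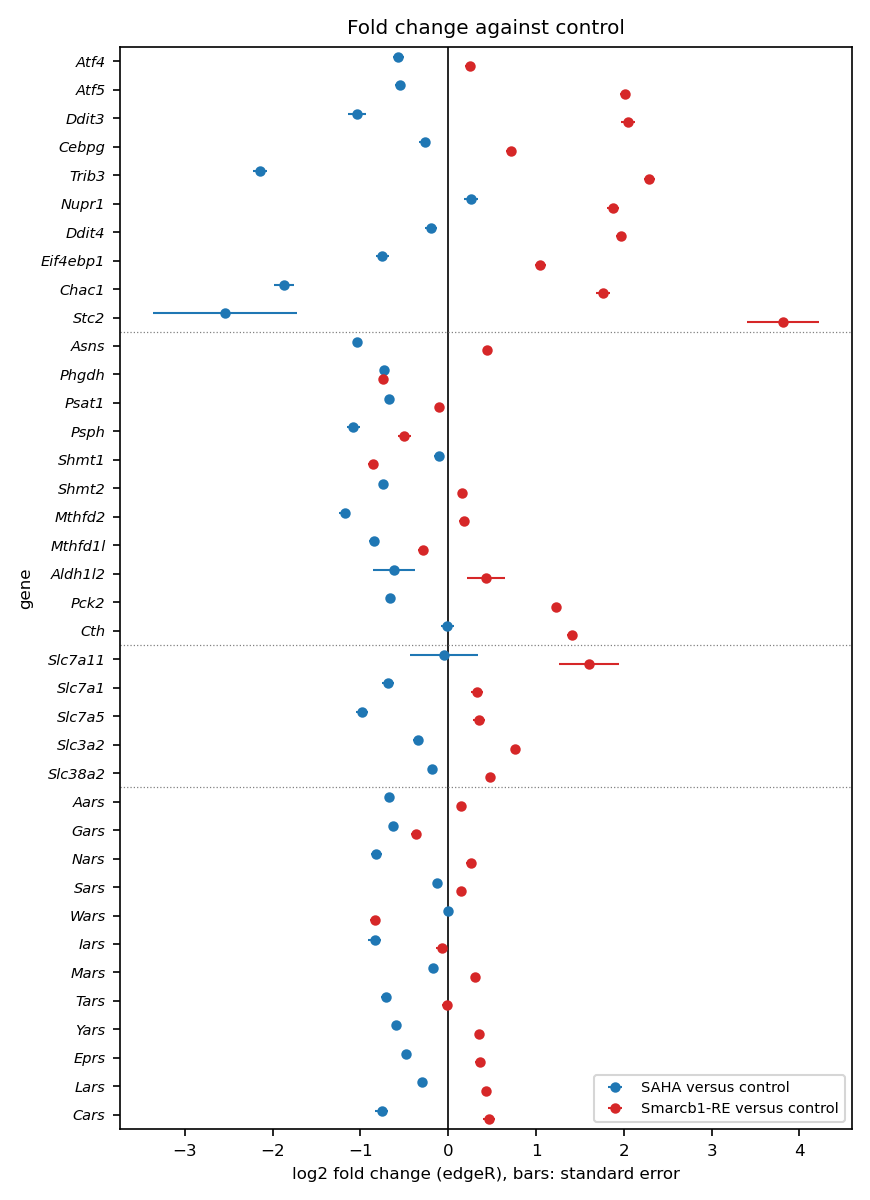
Log2 fold change (horizontal axis) of the 38 tested members (rows, in role groups split by dotted lines) in SAHA against control (blue) and Smarcb1-RE against control (red), with bars for the standard error of the edgeR fit. Most blue points lie left of 0 and most red points right of it, the widest gap being that of Stc2, from -2.54 to 3.81, which also has the longest bars.

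All 5 amino acid transporters rose in Smarcb1-RE (39.2% of all genes) and 4 fell in SAHA (34.3%). Slc7a5 and Slc3a2 encode the light and heavy chains of the transporter of large neutral amino acids, and Slc3a2 is also the heavy chain for Slc7a11. Slc7a5 had 155, 186 and 179 CPM in control, 97.5, 83.2 and 82.4 CPM in SAHA and 213, 227 and 221 CPM in Smarcb1-RE. Slc3a2 had 124, 119 and 108 CPM in control, 91, 93 and 92.1 CPM in SAHA and 194, 204 and 196 CPM in Smarcb1-RE. The groups of both genes did not overlap. The log2 fold changes were -0.98 for Slc7a5 and -0.35 for Slc3a2 in SAHA, and 0.35 and 0.76 in Smarcb1-RE.

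Slc7a1, the carrier of arginine and lysine, had 161, 197 and 206 CPM in control, 116, 116 and 116 CPM in SAHA and 228, 246 and 234 CPM in Smarcb1-RE, the lowest control value being that of control replicate 1. Slc38a2, a carrier of small neutral amino acids such as glutamine, had 282, 299 and 326 CPM in control, 273, 273 and 256 CPM in SAHA and 426, 425 and 419.6 CPM in Smarcb1-RE. Slc7a1 changed by -0.69 (standard error 0.07, adjusted p = 3.73e-06) in SAHA and 0.33 (standard error 0.07, adjusted p = 0.00108) in Smarcb1-RE, and Slc38a2 by -0.18 (standard error 0.05, adjusted p = 0.00775) and 0.48 (standard error 0.05, adjusted p = 1.77e-06). Slc7a11, which takes up cystine, was sparse, with 8, 11 and 25 counts in control, 12, 12 and 17 with SAHA and 42, 48 and 39 with re-expression. It rose in Smarcb1-RE (1.60, standard error 0.34, adjusted p = 0.000855). Its summed counts there were 3.03-fold those of control (95% exact interval from 2.13 to 4.37), and in SAHA 0.966-fold (interval from 0.616 to 1.51). Of 11 other amino acid transporters tested, 3 rose and 3 fell in SAHA, shares near the 32.6% and 34.3% of all genes. In Smarcb1-RE, 5 rose, a share near the 39.2% of all genes, and 2 fell (38.6% of all genes). The lysosomal arginine sensor Slc38a9 rose in Smarcb1-RE (0.95), as did the glutamine carrier Slc38a1 (0.42), while Slc7a6, an exchanger of arginine, fell in both (-0.60 and -0.54). In SAHA, Slc36a4 fell (-0.62) and Slc16a10, a carrier of aromatic amino acids, rose (0.59).

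The cytoplasmic tRNA synthetases charge each tRNA with its amino acid. Of the 12 listed here, 11 fell (34.3% of all genes) in SAHA, with a median log2 fold change of -0.61. In Smarcb1-RE, 8 rose (39.2% of all genes) and 2 fell (38.6%), with a median of 0.20. Cars, for cysteine, changed most in the direct comparison of Smarcb1-RE with SAHA (1.22, standard error 0.07, adjusted p = 7.09e-09). Its values were 106, 101 and 98.2 CPM in control, 68.9, 56 and 55 CPM in SAHA and 138, 139.7 and 142 CPM in Smarcb1-RE. Nars, for asparagine, followed (1.08, standard error 0.06, adjusted p = 3.25e-09) with 425, 426 and 413 CPM in control, 265, 222 and 228 CPM in SAHA and 500.1, 508 and 502 CPM in Smarcb1-RE. For both genes the 3 groups were separate, with SAHA replicate 1 the highest of its group. Against control, Cars changed by -0.76 in SAHA and 0.46 in Smarcb1-RE, and Nars by -0.82 and 0.26.

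Eprs, the fused enzyme for glutamate and proline, had 416, 430.3 and 418 CPM in control, 326, 286 and 292 CPM in SAHA and 529.8, 553 and 540.0 CPM in Smarcb1-RE. Lars, for leucine, had 249.9, 258 and 232 CPM in control, 213, 191 and 198 CPM in SAHA and 329, 333 and 333 CPM in Smarcb1-RE. Both rose in Smarcb1-RE, by 0.36 and 0.43 on the log2 scale, and fell in SAHA, by 0.48 and 0.30. Aars, for alanine, had 443, 458 and 442 CPM in control, 298, 268 and 276 CPM in SAHA and 492, 502 and 496 CPM in Smarcb1-RE, and changed by -0.67 (standard error 0.04, adjusted p = 4.66e-08) in SAHA and 0.15 (standard error 0.04, adjusted p = 0.00694) in Smarcb1-RE. Mars, for methionine, had 119.7, 125 and 123 CPM in control, 113, 107 and 107 CPM in SAHA and 149, 153 and 151 CPM in Smarcb1-RE. Sars, for serine, had 377, 364 and 351 CPM in control, 336, 325 and 333 CPM in SAHA and 406, 393 and 408 CPM in Smarcb1-RE. For each of these 5 genes the 3 groups were separate, with SAHA lowest. The log2 fold changes of Mars were -0.17 in SAHA and 0.30 in Smarcb1-RE, and those of Sars were -0.13 and 0.15. Aars shares 1326 bases of exon on the same strand with Exosc6, which had a mean of 0 counts against 9525 for Aars. The part of this overlap in the values of Aars was not tested.

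Yars, for tyrosine, had 202, 199 and 190.3 CPM in control, 141, 129 and 123 CPM in SAHA and 247, 253 and 251 CPM in Smarcb1-RE, with log2 fold changes of -0.59 (standard error 0.05, adjusted p = 3.92e-07) and 0.35 (standard error 0.05, adjusted p = 2.09e-05). It is the only member on chromosome 4, where the median log2 fold change of 838 tested genes in Smarcb1-RE was 0.36, against -0.01 for 12312 genes on the other autosomes, and the part of this shift in the value of Yars was not tested. Gars, for glycine, fell in both, from 456 ± 17.3 CPM (mean ± SD, n = 3) in the control libraries to 294 ± 15.6 CPM in SAHA and 353 ± 8.74 CPM in Smarcb1-RE. Iars (-0.84), for isoleucine, and Tars (-0.71), for threonine, fell in SAHA. In Smarcb1-RE, Iars (-0.07, adjusted p = 0.402) was not called but was called lower without control replicate 1 (-0.15, adjusted p = 0.0153), and Tars (-0.02) was not called in either setting, but was called higher with library totals alone (0.14, adjusted p = 0.0316). Wars, for tryptophan, is also induced by interferon and was the only member synthetase lower in Smarcb1-RE than in SAHA (-0.84, standard error 0.05, adjusted p = 7.11e-09). It fell from 134 ± 2.7 CPM in control to 74.9 ± 0.817 CPM in Smarcb1-RE (-0.84, standard error 0.05, adjusted p = 6.22e-09) and stood at 134 ± 8.89 CPM in SAHA (-0.0, adjusted p = 0.987).

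The remaining cytoplasmic synthetases and the scaffold proteins of their complex are not usually counted among ATF4 targets, and in Smarcb1-RE they moved down. There 11 of 12 fell and 1, Tarsl2, rose (0.26), with a median of -0.79, where 38.6% of all genes fell and 39.2% rose. In SAHA, 8 of the 12 fell and 1, Qars, rose (0.40), with a median of -0.29, where 34.3% of all genes fell and 32.6% rose. The multi-tRNA synthetase complex holds proteins of both kinds, bound to common scaffold proteins. Of its enzymes, Eprs, Lars and Mars rose in Smarcb1-RE and Iars was not called, as above, whereas Rars (-1.09), Kars (-1.03), Qars (-0.44) and Dars (-0.36), and the scaffold genes Aimp1 (-0.39), Aimp2 (-1.67) and Eef1e1 (-0.54), fell. Rars, for arginine, stood at 216, 215 and 209 CPM in control, 213, 209.6 and 219 CPM in SAHA and 100.4, 99.9 and 101 CPM in Smarcb1-RE, so that the Smarcb1-RE libraries lay far below the others. Aimp2 had 83.2, 77.9 and 76.8 CPM in control, 45.3, 46.4 and 47.7 CPM in SAHA and 24.7, 24.9 and 24.9 CPM in Smarcb1-RE, and fell in SAHA too (-0.77), as did Eef1e1 (-0.70). Hars, for histidine, which is not part of the complex, fell by 1.12 on the log2 scale in Smarcb1-RE and by 0.57 in SAHA.

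Among 17 mitochondrial synthetases, 13 fell (34.3% of all genes) and 4 were not called in SAHA, with a median of -0.27. In Smarcb1-RE, 3 rose (39.2% of all genes) and 7 fell, a share near the 38.6% of all genes, with a median of -0.13. Wars2, for tryptophan, fell by 0.94 in SAHA, as did Yars2 by 0.53 and Sars2 by 0.51. In Smarcb1-RE, Yars2 fell by 1.07 and Ears2 rose by 0.67. Lars2 stood apart, with 431, 357 and 284 CPM in control, 418, 378 and 363 CPM in SAHA and 1525, 2132 and 1408 CPM in Smarcb1-RE. Its value rose by 2.24 (standard error 0.16, adjusted p = 4.28e-08) in Smarcb1-RE with a wide spread within groups. In control its mean was 357 CPM, while Iars2, the next highest of this list, had 90.3 CPM. Whether all reads counted for Lars2 came from its mRNA was not tested.

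**Figure D4:**
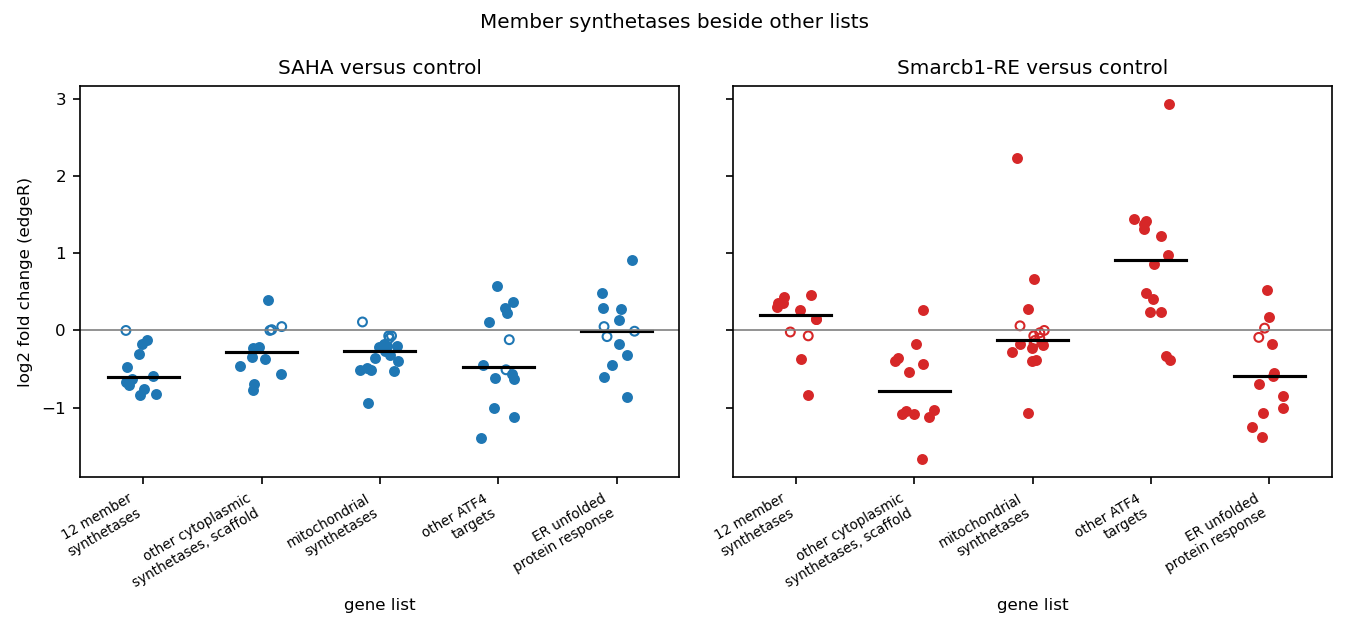
Log2 fold change (vertical axis) of the genes of 5 lists (horizontal axis) in SAHA against control (left) and Smarcb1-RE against control (right), with filled points for an adjusted p-value under 0.05, open points for others and a black line at the median of each list. In Smarcb1-RE, the median of the 12 member synthetases lies at 0.20 and that of the other cytoplasmic synthetases and scaffold genes at -0.79, while in SAHA they lie at -0.61 and -0.29.

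Genes that ATF4 is also known to induce but that are not members showed values on both sides in SAHA. There 5 of 14 tested genes rose, a share near the 32.6% of all genes, and 7 fell (34.3% of all genes). They mostly rose in Smarcb1-RE, where 12 rose (39.2% of all genes) and 2 fell (38.6%). The medians were -0.48 in SAHA and 0.92 in Smarcb1-RE. Slc6a9, a glycine transporter, had 10.3, 9.55 and 11.4 CPM in control, 6.11, 4.95 and 4.65 CPM in SAHA and 76.7, 86.9 and 77.3 CPM in Smarcb1-RE. Slc1a4, a carrier of serine and other small amino acids, had 34.3, 35.8 and 36.5 CPM in control, 15.1, 11.8 and 13.4 CPM in SAHA and 93.3, 101 and 98 CPM in Smarcb1-RE. Each was lowest in SAHA and highest in Smarcb1-RE without overlap, with log2 fold changes of -1.0 and 2.94 for Slc6a9 and -1.40 and 1.45 for Slc1a4. Slc6a9 lies on chromosome 4, like Yars. Cebpb, a further C/EBP factor, rose by 1.42 in Smarcb1-RE, and Herpud1, which serves ER-associated degradation, fell by 1.12 in SAHA and rose by 1.22 in Smarcb1-RE. Gdf15 and Fgf21, secreted proteins that ATF4 induces in other tissues, lay at or under 3 counts in every library and were not tested.

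Upstream of ATF4, the mRNA of Eif2ak4, which encodes GCN2, was higher in SAHA, with 54.8, 60.2 and 58.1 CPM in control, 127, 127 and 128 CPM in SAHA and 59.1, 58.7 and 56.7 CPM in Smarcb1-RE and log2 fold changes of 1.14 (standard error 0.04, adjusted p = 1.37e-09) and 0.01 (adjusted p = 0.836). Eif2ak1, the haem-regulated kinase, fell in both groups (-0.32 and -0.84). Eif2ak2, the kinase that senses double-stranded RNA, rose in both (0.61 and 0.18). Eif2ak3 (PERK), the kinase of the ER, rose by 0.19 in SAHA and was at -0.03 in Smarcb1-RE (adjusted p = 0.562). The phosphatase subunit Ppp1r15a (GADD34), which reverses eIF2 phosphorylation and is itself a target of the pathway, rose in both, with 12, 10.4 and 9.62 CPM in control, 18.2, 21 and 22.9 CPM in SAHA and 36.3, 37.2 and 39.1 CPM in Smarcb1-RE. Of the 17 genes of this list, which also holds the subunits of eIF2 and of its exchange factor eIF2B, 5 rose (32.6% of all genes) and 9 fell (34.3%) in SAHA. In Smarcb1-RE, 4 of them rose (39.2% of all genes) and 10 fell (38.6%). The eIF2B subunits Eif2b2 (-1.24) and Eif2b1 (-0.80) and the eIF2 subunit Eif2s1 (-0.83) were among those that fell in Smarcb1-RE. Impact (0.77) and the eIF2B subunit Eif2b3 (0.30) were among those that rose there. Eif2b3 lies on chromosome 4, like Yars, and the part of the shift of that chromosome in its value was not tested. Eif2b4 (-0.66) fell most in SAHA. Phosphorylation of eIF2 was not measured.

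The ER unfolded protein response shares Ddit3 and Atf4 with this pathway through PERK, but its chaperones moved otherwise in Smarcb1-RE. Of 13 genes of that response, 2 rose (39.2% of all genes) and 9 fell (38.6%) in Smarcb1-RE, with a median of -0.59. In SAHA, 5 rose and 5 fell (median -0.01), shares near the 32.6% and 34.3% of all genes. Hspa5, the chaperone BiP, fell from 979 ± 62.4 CPM (mean ± SD, n = 3) in the control libraries to 488 ± 5.13 CPM in Smarcb1-RE (-1.0, standard error 0.05, adjusted p = 1.19e-09) and stood at 929 ± 31.5 CPM in SAHA (-0.08, adjusted p = 0.179). Creld2 (-1.38), Calr (-1.25) and Sdf2l1 (-1.07), which also act in protein folding in the ER, fell most in Smarcb1-RE. In SAHA, the ER stress sensor Atf6 rose (0.92), and Creld2 (-0.86) and Sdf2l1 (-0.60) fell.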

How the data were processed

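RNA from 3 control, 3 SAHA and 3 Smarcb1-RE cell pellets was made into directional single-end libraries by the authors. The deposited table holds estimated counts per gene, which need not be whole (52.4% of values above 0 are not). The submitters' processing notes name Salmon 0.14.1, DESeq2 1.22.2, FastQC 0.11.8, MultiQC 1.7 and GRCm38, and the strand setting is not given in the sources used here. Here, counts were rounded, genes with low counts were removed by edgeR's filterByExpr (minimum count 10), and the 3 groups were fitted together by the quasi-likelihood test of edgeR 4.0.16 in R 4.3.3 with TMM factors. P-values were adjusted by the Benjamini-Hochberg method over all 13697 tested genes and called under 0.05. Standard errors are the absolute log2 fold change over the square root of F. Whether the replicates came from separate cultures or clones is not in the labels, so the p-values measure the spread between these libraries only (common biological coefficient of variation 5.24%).

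GENCODE M21 gave names and positions (99.5% of identifiers found), and RefSeq (GRCm38.p6) the start-site windows. The script was tested on simulated data. Members and gene lists were chosen with earlier results of these data known. All members are named, with values in every library for those called with an absolute log2 fold change of at least 1 against control or called in opposite directions, and for Atf4. From each other list, up to 3 called genes per comparison with the largest absolute log2 fold change and an average log2 CPM of at least 1 are named. Some further eIF2 pathway genes, the subunits of the synthetase complex, Tarsl2, Hspa5 and the undetected Gdf15 and Fgf21 were named outside this rule, after their values were seen. A gene that the rule would name and a start-site stretch are not reported here. Alternatives were DESeq2 1.42.0, other scaling factors, other filters, separate fits, a replicate block and leaving out each library.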

Additional observations from a re-analysis of the deposited data

How the results depend on the processing

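The counts of members called were close under every alternative: between 31 and 34 fell in SAHA, between 27 and 30 rose and between 6 and 8 fell in Smarcb1-RE, and between 33 and 36 were higher in Smarcb1-RE than in SAHA. The exception was the 1 member that rose in SAHA, Nupr1, so that leaving out 1 library gave between 0 and 1. Replicate numbers did not pair the libraries (correlations of deviations between -0.072 and 0.037 for the same number), and with the replicate block 33 members fell in SAHA and 28 rose and 6 fell in Smarcb1-RE. Of 1817 log2 fold changes of members under alternatives, 1761 kept direction and call, 24 lost and 10 gained a call, and 22 changed sign, all of them of values not called in the comparison as reported. The cause of the sign changes was not tested.

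In SAHA against control, Cth moved to 0.0 with DESeq2, with median-ratio factors and with separate fits, to 0.03 with at least 10 counts in every library, to 0.02 without control replicate 2 and to 0.05 without SAHA replicate 1, and over all fits that left out 1 library it lay between -0.07 and 0.05. Wars moved to 0.01 with DESeq2, median-ratio factors, separate fits and without control replicate 2, to 0.03 with at least 10 counts and to 0.05 without SAHA replicate 1, with a range from -0.04 to 0.05 when 1 library was left out. Slc7a11, with few counts, moved to 0.55 without control replicate 3, 0.04 without SAHA replicate 1 and 0.03 without SAHA replicate 2 (range -0.33 to 0.55). In Smarcb1-RE against control, library totals alone gave 0.06 for Psat1, 0.09 for Iars and 0.14 for Tars (adjusted p = 0.0316), and at least 10 counts gave 0.04 for Tars. In Smarcb1-RE against SAHA, Phgdh moved to 0.15 with library totals (adjusted p = 0.0113), 0.01 with at least 10 counts and 0.02 without SAHA replicate 1 (range -0.05 to 0.02 when 1 library was left out). With library totals alone, 61% of the called genes were higher in Smarcb1-RE than in control and 62.1% higher than in SAHA, against 50.4% and 50.6% with TMM. Counts were low for Stc2, Slc7a11, Aldh1l2 and Vldlr, and the precision of their values is limited accordingly.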
